A study of Macaca mulatta with 52 samples.

Results

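The genes described here encode enzymes that write opposite marks on histone H3 in single rhesus monkey (Macaca mulatta) preimplantation embryos. They comprise the histone acetyltransferases KAT2A, KAT2B, EP300, CREBBP, KAT6A and KAT6B, and the methyltransferases of lysine 9 of histone H3 (H3K9) EHMT1, EHMT2 and SETDB1. Members were found by their symbols among the 15078 named identifiers of a count table that holds 26309 gene identifiers. Of the 9 genes asked for, 8 had 1 identifier each, and KAT2A was not analysed here. The 8 identifiers passed the filter on low counts in both kits described below.

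Total RNA was sequenced from single embryos made by in vitro fertilisation of oocytes that had matured in hormone-stimulated females, with cumulus cells stripped off by pipetting. Libraries were made with 2 kits. SPIA denotes Ovation RNA-Seq v2, which amplifies cDNA linearly with a single primer, and 36 of its libraries were used: 9 from 8-cell embryos, 11 from morulas, 14 from expanded blastocysts and 2 from delayed blastocysts. SoLo denotes Ovation SoLo, a kit for very small inputs, and 13 of its libraries were used: 4 from 8-cell embryos, 3 from morulas and 6 from expanded blastocysts. The other 3 of the 52 samples, 2 SPIA libraries of 8-cell embryos and the SoLo library of morula 022416_02, were not analysed here. All embryos were grown in the protein-free medium HECM-9, to which calf serum was added after the first days of culture. The labels say that culture was with or without the peptide hormone relaxin but not which embryo received it, so relaxin is in no comparison. The labels also do not say which embryos share parents, and p-values measure the spread between these single-embryo libraries. Titles carry a 6-digit code whose meaning is not given. No expanded blastocyst shares its code with a morula or 8-cell embryo, so code and stage cannot be told apart in those contrasts. The same holds for SoLo morulas against 8-cell embryos, which share no code. In SPIA only code 020816 holds both morulas and 8-cell embryos. By their titles, all SoLo libraries came from embryos that also had a SPIA library. A result seen in both kits is therefore not a repeat in other embryos. No gene sequence was available for the members, so none is printed.

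Acetylation of histone tails loosens chromatin and recruits bromodomain proteins, and it is found at active promoters and enhancers. Methylation of H3K9 is the mark of heterochromatin, is bound by HP1 proteins and keeps repeats and silenced genes off. In mammalian embryos both kinds of mark are rebuilt around the activation of the embryonic genome and the split into trophectoderm and inner cell mass. A messenger RNA level of a writer says nothing direct about the mark itself, which was not measured in these samples.

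Total counts ran from 0.601 to 21.0 M (M, 1e6 counts) in SPIA libraries and from 5.70 to 10.6 M in SoLo libraries. Summed markers of 8-cell genome activation (7 of 11 listed genes with an identifier) had medians of 1069, 107 and 27.2 counts per M counts (CPM, scaled by TMM within the kit) in 8-cell, morula and expanded blastocyst SPIA libraries. Summed trophectoderm markers (11 of 15 with an identifier) had medians of 267, 270 and 1248 CPM in the same order, in the direction of the stage labels. An 8-cell SPIA library, embryo 020816_09, stood apart: it correlated with the rest of its stage at r = 0.646, the lowest of the 49 libraries used. It had 9170 CPM of oocyte and maternal markers, against a stage median of 845 CPM, and 0.73 CPM of pluripotency markers. The expanded blastocyst SPIA library of embryo 111715_05 had the lowest total, 0.601 M counts. Cumulus and granulosa markers (11 of 16 with an identifier) summed to at most 35.7 CPM in expanded blastocyst and 48.9 CPM in morula SPIA libraries but reached 1644 CPM in an 8-cell SPIA library and 2299 CPM in the SoLo library of the same embryo. Where a call on one of the 8 genes changed without these libraries, the value without them is given.

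**Figure D1:**
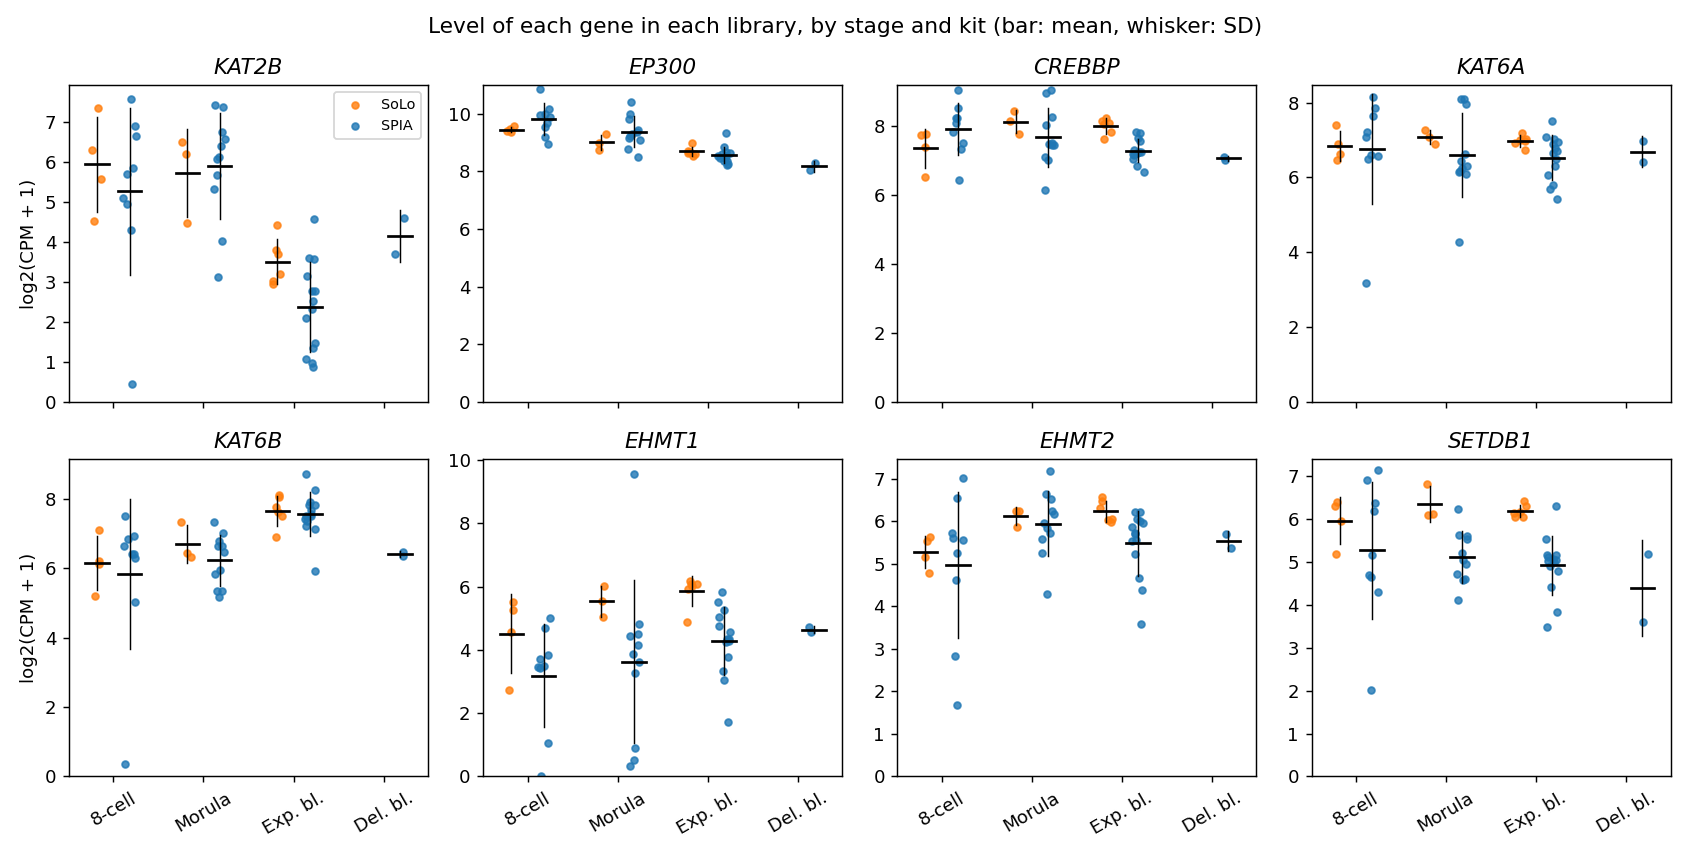
Level of each of the 8 genes in each library (points) as log2(CPM + 1) at the 8-cell, morula, expanded blastocyst (Exp. bl.) and delayed blastocyst (Del. bl.) stages, with SoLo left of SPIA, the mean as a bar and the SD as a whisker. KAT2B is lower in expanded blastocysts than at either earlier stage in both kits and KAT6B is higher, while EHMT1 in SPIA morulas has 1 library at 751 CPM; CPM were scaled within each kit, so heights are not compared between kits.

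KAT2B, also called PCAF, acetylates histone H3 as the catalytic subunit of the SAGA and ATAC coactivator complexes. Its messenger RNA was abundant at the 8-cell and morula stages and low in expanded blastocysts in both kits. In SPIA libraries it had 0.365 to 190 CPM in 8-cell embryos (median 51.2), 7.79 to 171 CPM in morulas (median 69.1) and 0.848 to 22.9 CPM in expanded blastocysts (median 4.41). In SoLo libraries it had 22.3, 46.9, 78.8 and 164 CPM at the 8-cell stage, 21.4, 73.0 and 90.1 CPM in morulas, and 6.71, 7.22, 8.16, 12, 12.9 and 20.6 CPM in expanded blastocysts.

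The SoLo groups did not overlap, since every expanded blastocyst lay below every earlier embryo. Of all genes in SoLo, 10.3% had no overlap against morulas and 33.2% against 8-cell embryos, in either direction. Among SPIA libraries 9 of 11 morulas and 7 of 9 8-cell embryos lay above the highest expanded blastocyst. The difference on the log2 scale, expanded blastocyst over morula, was -2.44 ± 0.53 (SE) in SoLo and -3.83 ± 0.59 in SPIA libraries. Expanded blastocyst over 8-cell gave -2.78 ± 0.51 in SoLo and -3.58 ± 0.60 in SPIA libraries. KAT2B was taken up because of this decrease, so these values are a description and carry no test. Fewer cells of one type and less RNA per cell cannot be told apart in RNA from whole embryos, here or in the results that follow.

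The highest SPIA expanded blastocyst value, 22.9 CPM, rested on 10 counts in the library of 0.601 M counts. Without that library the SPIA difference between expanded blastocyst and morula was -4.10, and without the 8-cell library of embryo 020816_09, which had 4 KAT2B counts, the difference between expanded blastocyst and 8-cell was -3.76. Between morula and 8-cell, where the gene was tested, no difference was detectable. edgeR's quasi-likelihood test with Benjamini-Hochberg adjustment over all genes gave -0.34 ± 0.60 in SoLo (adjusted p = 0.735) and 0.25 ± 0.61 in SPIA libraries (adjusted p = 0.814).

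Morula 022916_01 had the lowest KAT2B level of its stage in both kits, 21.4 CPM in SoLo and 7.79 CPM in SPIA. The same embryo had the highest trophectoderm marker sum of its stage in both kits, 1952 CPM in SoLo and 725 CPM in SPIA. It also led its stage in primitive endoderm markers, with 4205 CPM in SoLo and 2190 CPM in SPIA. This embryo was singled out after its values were seen. Over whole stages, oocyte and maternal markers (16 of 18 with an identifier) summed to 379 to 9170 CPM in 8-cell, 105 to 1531 CPM in morula and 78.5 to 507 CPM in expanded blastocyst SPIA libraries. Trophectoderm markers ran from 350 to 1983 CPM in expanded blastocysts and from 163 to 725 CPM in morulas. The part of either list in the KAT2B difference was not tested.

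The 5 named genes whose SPIA levels were most like those of KAT2B, by Pearson correlation of log2(CPM + 1) over 36 libraries, were PDCL3 (r = 0.788), HELB (0.775), NOP2 (0.775), ACOT13 (0.751) and CFAP97 (0.749). These libraries share stages, depth and kit, and the values are a description. PDCL3 averaged 333, 378 and 68.2 CPM in 8-cell, morula and expanded blastocyst libraries. HELB, a DNA helicase, averaged 60.5, 77.2 and 14.2 CPM.

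EP300 encodes p300, which acetylates H3 lysine 27 at enhancers, and fell in expanded blastocysts against 8-cell embryos in both kits. In SPIA libraries it had 492 to 1842 CPM in 8-cell embryos (median 946), 360 to 1342 CPM in morulas (median 631) and 296 to 636 CPM in expanded blastocysts (median 364). In SoLo libraries it had 654, 667, 702 and 764 CPM at the 8-cell stage, 429, 505 and 620 CPM in morulas, and 365, 388, 397, 410, 417 and 508 CPM in expanded blastocysts. All 6 SoLo expanded blastocysts lay below all 4 8-cell embryos, and 13 of 14 SPIA expanded blastocysts lay below all 9 8-cell embryos. In that SoLo contrast 33.2% of all genes had no overlap.

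Against 8-cell embryos the EP300 log2 difference was -0.75 ± 0.15 in SoLo (edgeR adjusted p = 0.001) and -1.32 ± 0.23 in SPIA libraries (edgeR adjusted p = 2.08e-05). Against morulas it was -0.88 ± 0.22 in SPIA (edgeR adjusted p = 0.00569), with 6 of 14 expanded blastocysts below every morula, and -0.32 ± 0.16 in SoLo (edgeR adjusted p = 0.35). Morulas against 8-cell embryos did not pass the threshold in either kit. The difference was -0.43 ± 0.18 in SoLo (edgeR adjusted p = 0.111) and -0.44 ± 0.24 in SPIA (edgeR adjusted p = 0.206). The 3 SoLo morulas all lay below the 4 8-cell embryos, in a contrast where 23.9% of all genes had no overlap. Without the 8-cell library of embryo 020816_09, which had the highest EP300 level, the SPIA difference from 8-cell embryos was -1.14 (edgeR adjusted p = 5.48e-05). Without the 3 8-cell embryos with cumulus markers (020816_06, 020816_07 and 112815_02), the SoLo difference was -0.69 (edgeR adjusted p = 0.0508), with a single 8-cell library left.

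CREBBP encodes CBP, the close relative of p300 with the same enzymatic activity and shared targets. Its differences from 8-cell embryos had opposite signs in the kits, and the difference between the kits was not called over all paired libraries. In SPIA libraries it had 85.9 to 521 CPM in 8-cell embryos (median 268), 69.8 to 523 CPM in morulas (median 175) and 99.4 to 224 CPM in expanded blastocysts (median 149). In SoLo libraries it had 91.0, 166, 210 and 213 CPM at the 8-cell stage, 217, 281 and 343 CPM in morulas, and 193, 223, 262, 267, 282 and 299 CPM in expanded blastocysts. The groups overlapped in SPIA, whereas in SoLo all 3 morulas and 5 of 6 expanded blastocysts lay above every 8-cell embryo. Between SoLo morulas and 8-cell embryos 23.9% of all genes had no overlap.

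Against 8-cell embryos, expanded blastocysts gave 0.58 ± 0.23 in SoLo (edgeR adjusted p = 0.0574) and -0.75 ± 0.30 in SPIA libraries (edgeR adjusted p = 0.0407). Leaving out 14 of the 36 SPIA libraries one at a time took the SPIA adjusted p above the threshold. With the library of embryo 020816_09 left out the difference was -0.57 (edgeR adjusted p = 0.114), and without the library of 0.601 M counts it was -0.74 (edgeR adjusted p = 0.0503). The SoLo value, which missed the threshold, passed it in 3 of 13 fits that left out a library, within a range of 0.37 to 0.7. Without the 3 8-cell embryos that had cumulus markers, the SoLo value was 1.49 (edgeR adjusted p = 0.00574), again against a single 8-cell library, and the SPIA value -0.73 (edgeR adjusted p = 0.091). Morulas against 8-cell embryos gave 0.72 in SoLo (edgeR adjusted p = 0.0737), and 1.62 without those 3 embryos (edgeR adjusted p = 0.00755). Over the embryos present in both kits, the difference between SoLo and SPIA in this contrast was 1.25 ± 0.35 on the log2 scale (unadjusted p = 0.00138, edgeR adjusted p = 0.146), which did not pass the threshold after correction. That fit does not pair the 2 libraries of an embryo, and without embryo 112815_02 it gave 1.59, which passed the threshold. With the embryo as a block over 11 pairs the difference was 1.21 ± 0.38 (edgeR adjusted p = 0.405).

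Within a library the ratio of EP300 to CREBBP counts does not depend on scaling. In SoLo libraries the log2 ratio was 1.64 to 2.87 in 8-cell embryos, 0.61 to 1.22 in morulas and 0.45 to 1.04 in expanded blastocysts, so the 8-cell embryos lay apart from both later stages. All SoLo morulas lay below the 8-cell embryos in EP300 and above them in CREBBP, so their separation in the ratio follows from those levels. How often other gene pairs lie apart was not computed. In SPIA libraries its medians were 1.82, 1.65 and 1.25 in the same order, and the ranges overlapped. Gene lengths enter such a ratio, so only its change across stages is read.

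**Figure D2:**
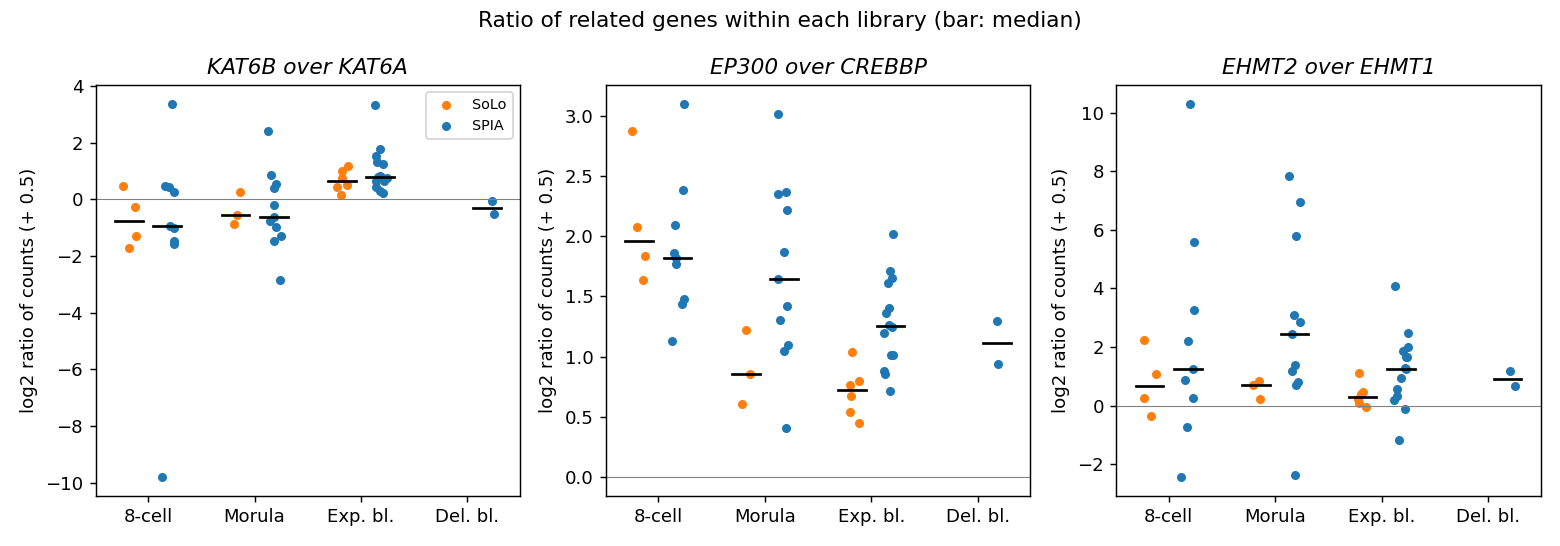
Log2 ratio of counts (0.5 added to each) of 3 pairs of related genes in each library (points) by stage, with SoLo left of SPIA and the median as a bar. The KAT6B over KAT6A ratio is above 0 in every expanded blastocyst of both kits and below 0 in both delayed blastocysts; the EP300 over CREBBP ratio has its highest median in 8-cell embryos; the EHMT2 over EHMT1 ratio spreads from -2.44 to 10.31 in SPIA 8-cell embryos.

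KAT6A (MOZ) and KAT6B (MORF) are acetyltransferases of the MYST family that act in complexes with BRPF scaffold proteins. KAT6B rose in expanded blastocysts against 8-cell embryos in both kits and against morulas in SPIA, and KAT6A passed the test in no stage contrast. KAT6B had 0.274 to 181 CPM in 8-cell embryos (median 84.2), 35.1 to 161 CPM in morulas (median 87.8) and 59.4 to 419 CPM in expanded blastocysts (median 184) of the SPIA kit. In SoLo libraries it had 35.8, 68.4, 72.1 and 135 CPM at the 8-cell stage, 79.2, 85.0 and 161 CPM in morulas, and 117, 180, 196, 217, 261 and 271 CPM in expanded blastocysts. In SPIA 11 of 14 expanded blastocysts lay above every morula and 9 above every 8-cell embryo, and in SoLo 5 of 6 lay above both groups.

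Against 8-cell embryos the KAT6B log2 difference was 1.41 ± 0.34 in SoLo (edgeR adjusted p = 0.00392) and 1.21 ± 0.43 in SPIA libraries (edgeR adjusted p = 0.0247). Against morulas it was 1.29 ± 0.40 in SPIA (edgeR adjusted p = 0.0247) and 0.93 ± 0.37 in SoLo (edgeR adjusted p = 0.218). Morula 022916_01 had the highest SoLo level of its stage, 161 CPM. Without that morula the SoLo difference was 1.34 (edgeR adjusted p = 0.0487), in a fit where calls over all genes went from 162 to 1477. It was the only 1 of 13 fits leaving out a library that passed the threshold, within a range of 0.75 to 1.34. The SPIA 8-cell library of embryo 020816_09 held 3 KAT6B counts, and without it the SPIA difference from 8-cell embryos was 1.04 (edgeR adjusted p = 0.0112). Without the 3 8-cell embryos with cumulus markers that value was 1.29 (edgeR adjusted p = 0.0526). Both SPIA calls of KAT6B were lost among the embryos with no SoLo library.

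KAT6A had medians of 135, 78.4 and 102 CPM in 8-cell, morula and expanded blastocyst SPIA libraries, within overall ranges of 8.07 to 283, 18.5 to 273 and 41.8 to 182 CPM. In SoLo libraries its medians were 107, 135 and 127 CPM. Expanded blastocysts against 8-cell embryos gave 0.10 ± 0.20 in SoLo (edgeR adjusted p = 0.735) and -0.53 ± 0.39 in SPIA libraries (edgeR adjusted p = 0.297). The log2 ratio of KAT6B to KAT6A counts was 0.15 to 1.18 in SoLo and 0.24 to 3.32 in SPIA expanded blastocysts, above 0 in all 20. Its median was -0.56 in SoLo and -0.63 in SPIA morulas, and -0.78 in SoLo and -0.94 in SPIA 8-cell embryos, with some embryos of both stages above 0.

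**Figure D3:**
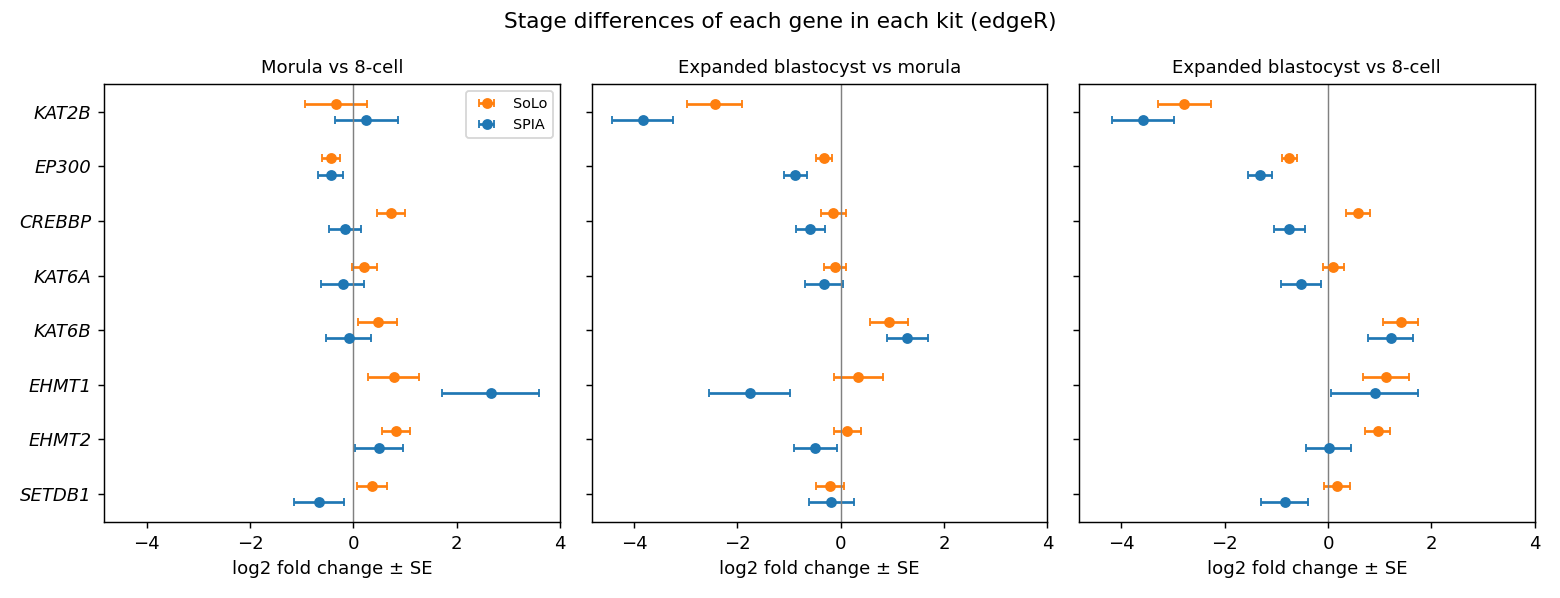
Log2 fold change (points) with its standard error (bars) of each gene for morula against 8-cell, expanded blastocyst against morula and expanded blastocyst against 8-cell, with SoLo above SPIA. KAT2B and EP300 lie left of 0 in both kits in the expanded blastocyst contrasts and KAT6B lies right of 0; CREBBP lies on opposite sides of 0 in the last panel, at 0.58 in SoLo and -0.75 in SPIA, and the EHMT1 values of SPIA morulas rest on 1 library.

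EHMT1 (GLP) and EHMT2 (G9a) form a heterodimer that places mono- and dimethyl marks on H3K9 in euchromatin. EHMT1 was detected unevenly in SPIA libraries. It had 0 to 31.2 CPM in 8-cell embryos (median 10.3), 0.247 to 751 CPM in morulas (median 13.5) and 2.29 to 55.8 CPM in expanded blastocysts (median 19.2). The SD of its log2 level in SPIA morulas was 2.58, against a median of 1.20 over all genes in the same libraries. The 8-cell embryo 020816_08 held no EHMT1 count in SPIA, which allows up to 0.435 CPM by counting error alone (3 counts, scaled by TMM), while its SoLo library held 329 counts, or 37.2 CPM. In SoLo libraries EHMT1 had 5.61, 22.8, 37.2 and 44.3 CPM at the 8-cell stage, 32.1, 45.6 and 63.6 CPM in morulas, and 28.7, 60.0, 64.3, 66.8, 67.1 and 70.8 CPM in expanded blastocysts.

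EHMT1 passed the test in SPIA morulas against 8-cell embryos, at 2.66 ± 0.94 (edgeR adjusted p = 0.041), but that value rested on 1 library and the call was lost in 8 of 36 fits that left out a library. Morula 022416_02 held 4802 EHMT1 counts, or 751 CPM, while the other 10 SPIA morulas had at most 27.0 CPM. The SoLo library of that embryo was not analysed here. Without it the difference was -0.06 (edgeR adjusted p = 0.971), and that of expanded blastocysts against morulas turned from -1.76 ± 0.78 (edgeR adjusted p = 0.12) to 0.95 (edgeR adjusted p = 0.387). Without the 8-cell library of embryo 020816_09 the morula value was 2.65 (edgeR adjusted p = 0.0674), and without the 3 8-cell embryos with cumulus markers 2.99 (edgeR adjusted p = 0.0671). In SoLo libraries morulas against 8-cell embryos gave 0.78 ± 0.49 (edgeR adjusted p = 0.293). Expanded blastocysts against 8-cell embryos gave 1.12 ± 0.44 in SoLo (edgeR adjusted p = 0.0521) and 0.90 ± 0.85 in SPIA libraries (edgeR adjusted p = 0.429), with 5 of 6 SoLo expanded blastocysts above every 8-cell embryo. That SoLo value passed the threshold in 3 of 13 fits that left out a library, within a range of 0.77 to 1.44.

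EHMT2 rose after the 8-cell stage in SoLo libraries. It had 26.6, 34.9, 45.0 and 48.2 CPM at the 8-cell stage and 57.4, 74.6 and 74.9 CPM in morulas. Expanded blastocysts had 62.2, 64.5, 65.1, 77.9, 88.2 and 93.6 CPM, and the 8-cell embryos did not overlap either later stage. Of all genes in SoLo, 23.9% had no overlap between morulas and 8-cell embryos, and 33.2% between expanded blastocysts and 8-cell embryos. Morulas against 8-cell embryos gave 0.83 ± 0.27 (edgeR adjusted p = 0.0458) and expanded blastocysts against 8-cell embryos 0.96 ± 0.24 (edgeR adjusted p = 0.00506). The morula call was lost in 11 of 13 fits that left out 1 library, with values from 0.69 to 0.95, and without the 3 8-cell embryos with cumulus markers (0.62, edgeR adjusted p = 0.275). The expanded blastocyst call held in those fits but not without those 3 embryos (0.74, edgeR adjusted p = 0.136).

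In SPIA libraries EHMT2 had 2.19 to 128 CPM in 8-cell embryos (median 46.2), 18.5 to 144 CPM in morulas (median 61.2) and 11 to 73.0 CPM in expanded blastocysts (median 51.5), and the stages overlapped. Morulas against 8-cell embryos gave 0.50 ± 0.47 (edgeR adjusted p = 0.489) and expanded blastocysts against 8-cell embryos 0.01 ± 0.44 (edgeR adjusted p = 0.994). The kits' EHMT2 values for expanded blastocyst against 8-cell differed by 1.33 ± 0.56 over the same embryos (unadjusted p = 0.0228, edgeR adjusted p = 0.306). That fit does not pair the 2 libraries of an embryo. With the embryo as a block over 11 pairs the difference was 0.77 ± 0.63 (edgeR unadjusted p = 0.233).

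SETDB1 trimethylates H3K9 and is brought to retrotransposons by TRIM28 and zinc finger proteins. It passed the test in no stage contrast of either kit. Its SPIA medians were 34.9, 32.1 and 31.7 CPM in 8-cell, morula and expanded blastocyst libraries, with 3.04 to 139 CPM among 8-cell embryos. Its SoLo medians were 69.1, 67.6 and 70.1 CPM. Expanded blastocysts against 8-cell embryos gave 0.17 ± 0.25 in SoLo (edgeR adjusted p = 0.631) and -0.84 ± 0.45 in SPIA libraries (edgeR adjusted p = 0.142). Over the same embryos the kits' SETDB1 values in this contrast differed by 1.34 ± 0.61 (edgeR unadjusted p = 0.0369, adjusted p = 0.351), which was not called. With the embryo as a block over 11 pairs the difference was 0.91 ± 0.61 (edgeR unadjusted p = 0.147).

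The genes whose SPIA levels were most like those of EHMT1 were HAX1 (r = 0.66), MIXL1 (0.657), HEXA (0.649), COG8 (0.642) and IL4R (0.64). For EHMT2 they were TSPAN14 (r = 0.743), OARD1 (0.725), AHSA1 (0.682), CCT7 (0.674) and NOL7 (0.658). As for KAT2B, these are descriptions over the same 36 libraries.

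Across the genes, 1 call was made per kit at the morula stage. In SPIA 1 of 8 genes (EHMT1) was called in morulas against 8-cell embryos, where 19.4% of all 15578 genes tested were called, and in SoLo also 1 of 8 (EHMT2), where 16.7% of 14196 were. In expanded blastocysts against morulas 2 of the 7 other genes were called in SPIA (14.7% of all genes), and none of the 7 in SoLo (1.14% of all genes), where KAT6B alone had an unadjusted p under 0.05. The DESeq2 count for SoLo in that contrast over all genes was 679, against 162 by edgeR. In expanded blastocysts against 8-cell embryos 3 of the 7 were called in each kit, EP300, CREBBP and KAT6B in SPIA (36.6% of all genes) and EP300, KAT6B and EHMT2 in SoLo (38.4% of all genes). These shares lie near those over all genes. The median log2 difference of the 8 genes in that contrast was 0.37 in SoLo and -0.64 in SPIA libraries, against -0.05 and -0.43 over all genes. These medians include KAT2B. Among the genes other than KAT2B, the SoLo groups did not overlap for EP300, CREBBP and EHMT2 in morulas against 8-cell embryos (23.9% of all genes), for none in expanded blastocysts against morulas (10.3% of all genes) and for EP300 and EHMT2 in expanded blastocysts against 8-cell embryos (33.2% of all genes). In SPIA the groups of those genes overlapped in every contrast, against 0.167%, 0.0449% and 2.12% of all genes without overlap in the same order, and 0.886% for delayed against expanded blastocysts.

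Delayed blastocysts were compared with expanded blastocysts in 2 SPIA libraries of embryos coded 112515. No member was called, and neither was any of the 15578 genes by edgeR (0.0%), with 196 at an unadjusted p under 0.05 and 25 called by DESeq2. KAT2B had 12 and 23.4 CPM in delayed blastocysts, above 13 of 14 expanded blastocysts, and gave 1.67 ± 0.91. The gene was taken up for its low level in expanded blastocysts, so this value too is a description without a test. KAT6B had 86.8 and 79.9 CPM in delayed blastocysts, below 13 of 14 expanded blastocysts, and gave -1.28 ± 0.82 (edgeR adjusted p = 1.0). The single expanded blastocyst beyond them in KAT6B, and near them in KAT2B, was the library of 0.601 M counts.

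The expanded blastocysts with the same code, 112515_03 and 112515_04, had 1.58 and 1.79 CPM of KAT2B and 419 and 225 CPM of KAT6B. Within that code, delayed over expanded gave 3.44 for KAT2B, again a description, and -1.9 for KAT6B (edgeR adjusted p = 0.812). The KAT6B over KAT6A log2 ratio was -0.53 and -0.06 in delayed blastocysts, below every expanded blastocyst. Trophectoderm markers summed to 895 and 436 CPM in delayed blastocysts, against a median of 1248 CPM in expanded blastocysts. Primitive endoderm markers summed to 1806 and 942 CPM in delayed blastocysts, against a median of 3761 CPM in expanded blastocysts, and the part of cell composition in these values was not tested. EP300 had 314 and 262 CPM in delayed blastocysts, and EHMT1, EHMT2 and SETDB1 differed from expanded blastocysts by 0.04 ± 1.45, -0.08 ± 0.79 and -0.47 ± 0.84, intervals too wide to read a direction from.

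The same embryos were also compared between the kits, with 13 libraries per kit (11 embryos paired by title, and 2 of code 111215 matched only as a group), counts scaled together and stage in the model. Of 14873 genes 23.3% were called in either direction and 11.4% as lower in SoLo, and 5 of the 8 members were called lower in SoLo than in SPIA libraries. EP300 averaged 413 ± 113 CPM in SoLo and 785 ± 380 CPM in SPIA libraries (SD, n = 13 each, on the joint scale) and was lower in SoLo in 11 of 11 paired embryos. Its difference was -0.88 ± 0.13 on the log2 scale (edgeR adjusted p = 3.4e-06). EHMT2 differed by -0.97 ± 0.26, KAT6B by -0.86 ± 0.21, KAT6A by -0.71 ± 0.19 and CREBBP by -0.60 ± 0.18, with edgeR adjusted p from 0.00223 to 0.0163. KAT2B (-0.30 ± 0.41), EHMT1 (0.23 ± 0.41) and SETDB1 (0.05 ± 0.28) were not called.

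KAT2B could be set side by side in the embryos sequenced with both kits. On the joint scale the 4 paired expanded blastocysts had 5.05 to 16.3 CPM in SoLo and 1.28 to 15.8 CPM in SPIA, and the 4 paired 8-cell embryos 17.7 to 128 CPM in SoLo and 29.3 to 177 CPM in SPIA. The paired morulas had 16.7 to 72.2 CPM in SoLo and 11.4 to 128 CPM in SPIA. Morula 022916_01 was the lowest in both kits, and its SPIA value lay within the range of the expanded blastocysts. No member had a stage difference that differed between kits after correction. Over all genes 5 of 14873 (0.0336%) did for expanded blastocyst against 8-cell, and none (0.0%) for the other stage contrasts, with 1425 and 783 genes at an unadjusted p under 0.05.

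**Figure D4:**
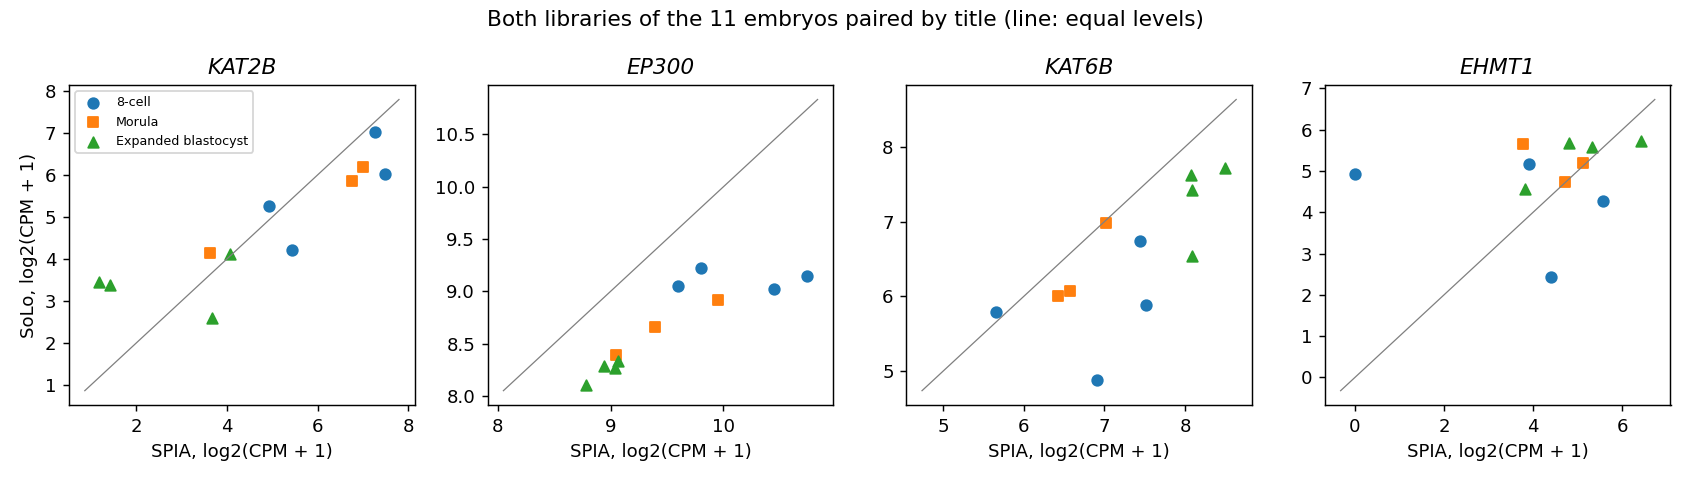
Levels of 4 genes in the SPIA (x axis) and SoLo (y axis) libraries of the 11 embryos paired by title, as log2(CPM + 1) on a scale shared by both kits, with the line of equal levels. EP300 lies below the line in all 11 embryos, KAT2B separates expanded blastocysts from most earlier embryos on both axes, and EHMT1 includes the 8-cell embryo with 0 counts in SPIA and 329 in SoLo.

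Genes that act with these enzymes were read from the same fits, and their values are log2 differences. Among SAGA and ATAC partner subunits, the complexes that hold KAT2B, 18 of 25 listed genes were tested. In expanded blastocysts against 8-cell embryos 1 rose and 6 fell in SPIA, and 5 rose and 6 fell in SoLo, where 36.6% of all genes were called in SPIA and 38.4% in SoLo. The median log2 differences of the list were -0.14 in SoLo and -0.66 in SPIA, against -0.05 and -0.43 over all genes. POLE3, a histone-fold subunit of ATAC, fell in both kits, at -1.97 in SoLo (edgeR adjusted p = 8.5e-06) and -2.02 in SPIA (edgeR adjusted p = 0.000209). SUPT3H, a structural SAGA subunit, fell, at -2.17 in SoLo and -2.40 in SPIA. USP22, the SAGA deubiquitinase, rose by 1.57 in SoLo and 1.48 in SPIA. TAF5L fell against morulas in SPIA by 1.41 (edgeR adjusted p = 0.0316), while SoLo gave 0.04 (edgeR adjusted p = 0.967).

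Of 10 other histone acetyltransferases 9 were tested, and in expanded blastocysts against 8-cell embryos 1 rose and 4 fell in SPIA (36.6% of all genes were called), and 2 rose and 3 fell in SoLo (38.4% of all genes). NCOA1, a nuclear receptor coactivator, had 206 CPM in SPIA morulas and 55.4 CPM in 8-cell embryos on average, a difference of 1.87 ± 0.31 in SoLo (edgeR adjusted p = 0.000658) and 1.89 ± 0.50 in SPIA (edgeR adjusted p = 0.00688). It stayed higher in expanded blastocysts than in 8-cell embryos, by 1.81 in SoLo and 1.49 in SPIA. Its relative NCOA3 moved the other way against 8-cell embryos, at -0.85 ± 0.19 in SoLo (edgeR adjusted p = 0.00215) and -2.39 ± 0.45 in SPIA (edgeR adjusted p = 7.01e-05). GTF3C4 fell in the same contrast, at -1.15 in SoLo and -1.33 in SPIA. HAT1, which acetylates newly made histone H4, fell in expanded blastocysts against morulas, at -1.64 in SoLo (edgeR adjusted p = 0.0368) and -1.40 in SPIA (edgeR adjusted p = 0.0119).

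Partners of KAT6A and KAT6B (MOZ/MORF and HBO1 subunits, 9 of 9 tested) moved in both directions. In expanded blastocysts against 8-cell embryos 1 rose and 2 fell in SPIA, and 2 rose and 3 fell in SoLo, against 36.6% and 38.4% of all genes called in these kits. The scaffold BRPF1 fell, at -0.80 in SoLo (edgeR adjusted p = 0.0114) and -1.83 in SPIA (edgeR adjusted p = 0.00273), and JADE3, at -1.78 in SoLo and -1.91 in SPIA. Among p300/CBP cofactors (8 listed, 6 tested in SoLo and 7 in SPIA), CITED2, which binds p300 and CBP, rose against 8-cell embryos by 2.63 in SoLo (edgeR adjusted p = 0.000247) and 2.50 in SPIA (edgeR adjusted p = 0.00366). CREB1, the transcription factor that recruits CBP, rose by 1.15 in SoLo and 2.21 in SPIA. In SPIA morulas against 8-cell embryos NCOA2 fell by 1.82 and CREB1 rose by 1.8, while SoLo gave -0.59 (edgeR adjusted p = 0.418) and 0.77 (edgeR adjusted p = 0.174). In SPIA expanded blastocysts against morulas CITED1 and CRTC1 fell, and SoLo gave 0.57 for CRTC1 (edgeR adjusted p = 0.841). These calls do not show a difference between the kits. CITED1 averaged 0.0247 CPM in SPIA expanded blastocysts and 1.87 CPM in morulas, and was not tested in SoLo.

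Of 16 bromodomain and YEATS readers of acetylated histones, none rose and 6 fell in SPIA expanded blastocysts against 8-cell embryos, where 36.6% of all genes were called, and 2 rose and 4 fell in SoLo, where 38.4% were. BRDT fell, at -1.10 in SoLo and -0.93 in SPIA, and ATAD2 gave -0.99 in both kits, with edgeR adjusted p from 0.00172 to 0.0242. In SPIA morulas MLLT1 (-1.9) and BAZ2A (-1.11) fell against 8-cell embryos, while SoLo gave -0.30 and -0.28 (edgeR adjusted p = 0.76 and 0.418).

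On the H3K9 side, 4 of 7 other methyltransferases were tested. In expanded blastocysts against 8-cell embryos none rose and 2 fell in each kit, with 36.6% of all genes called in SPIA and 38.4% in SoLo. PRDM2 had 145 CPM in SPIA expanded blastocysts and 302 CPM in 8-cell embryos on average, and fell, at -0.66 in SoLo (edgeR adjusted p = 0.00672) and -1.06 in SPIA (edgeR adjusted p = 0.00366). Of 12 partners of EHMT and SETDB1, 11 were tested, and in expanded blastocysts against 8-cell embryos 2 rose and 4 fell in SPIA (36.6% of all genes were called), and 3 rose and 4 fell in SoLo (38.4% of all genes). MORC2, which works with the HUSH silencing complex, fell in morulas against 8-cell embryos, at -1.43 in SoLo (edgeR adjusted p = 0.0274) and -1.99 in SPIA (edgeR adjusted p = 0.0157), and in expanded blastocysts, at -1.5 in SoLo and -3.07 in SPIA. PPHLN1, a HUSH subunit, fell in expanded blastocysts against 8-cell embryos, at -1.54 in SoLo and -1.56 in SPIA. ATF7IP2 fell in the same contrast, at -1.05 in SoLo and -2.55 in SPIA. ATF7IP, which stabilises SETDB1, fell against morulas in SPIA by 0.96 (edgeR adjusted p = 0.0486), and SoLo gave -0.74 (edgeR adjusted p = 0.118).

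The 3 HP1 readers passed the test in no SPIA contrast, and CBX5 fell in SoLo expanded blastocysts against 8-cell embryos. Of 11 H3K9 demethylases, which remove the mark, 2 rose and 3 fell in SPIA expanded blastocysts against 8-cell embryos, and 5 rose and 3 fell in SoLo, beside 36.6% and 38.4% of all genes called. KDM4A fell, at -1.59 in SoLo (edgeR adjusted p = 0.000201) and -1.9 in SPIA (edgeR adjusted p = 0.00054). KDM3B rose by 1.72 in SoLo and 1.58 in SPIA, and JMJD1C by 1.28 in SoLo and 1.63 in SPIA, with edgeR adjusted p from 0.000341 to 0.0132. The median over the demethylases was -0.29 in SoLo and -0.17 in SPIA, against -0.05 and -0.43 over all genes.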

How the data were processed

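The authors deposited raw counts per Ensembl gene identifier, with symbols beside some of them. The submitters' processing notes name HISAT2 and DESeq2 without versions. Not given in the sources used here are the genome build, the counting program and the strand setting; reads of close relatives or overlapping genes may be shared. Columns were matched to samples by title (47) or by group (2, both SoLo expanded blastocysts of code 111215). The other 3 of the 52 columns were not used.

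Counts were tested with edgeR 4.0.16 in R 4.3.3 (TMM scaling, filterByExpr, robust quasi-likelihood fit, Benjamini-Hochberg adjustment over all genes, threshold 0.05). Stages were fitted together within each kit, and CPM are TMM-scaled within the kit. The kit comparison scaled both kits together, with stage but not embryo in the model. Alternatives were DESeq2 1.42.0 and its size factors, no filter, the compared groups alone, subsets of embryos, and each library left out. Another was limma 3.58.1 voom with the 6-digit title code as a block. That setting changes the test as well as adding the block, and voom without the block was not run. The correlation it used between libraries of the same code was 0.0682 in SoLo and -0.0345 in SPIA. No expanded blastocyst shares a code with an earlier stage, and no SoLo morula shares a code with a SoLo 8-cell embryo. That block therefore cannot separate code from stage in those contrasts. The stage fit was tested on simulated data with the same spread in both kits. There it recovered fewer of the known changes at the size of the SoLo set than of the SPIA set. In the data the spread was smaller in SoLo. The median SD of log2 levels over all genes was 0.752, 0.642 and 0.447 in SoLo 8-cell, morula and expanded blastocyst libraries. In SPIA it was 1.31, 1.2 and 0.826. The simulation therefore does not say which kit finds more changes here.

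Libraries of both kits with the same stage, code and number in their titles were paired as 1 embryo (11 pairs). Deviations from the group means correlated within pairs with a median r of 0.228, over 0.1 in 10 of 11. The exception was expanded blastocyst 111715_02, at r = -0.021, whose SPIA library correlated more with the SoLo library of another embryo. It was kept as a pair by its title alone. No 2 libraries of a group agreed within sampling noise. Totals of 0.601 to 21.0 M counts set the precision, and intervals from counts cover counting error only.

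Members and gene lists were chosen with earlier results of these data known. Genes named from a list are those called the same way in both kits (at most 3 per list and contrast, by SPIA adjusted p) or, where none was, at most 2 called in SPIA.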

Additional observations from a re-analysis of the deposited data

Results flagged for a closer look

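Single samples were compared with their group in 24 groups of 4 to 10 libraries by Dixon's criterion, which by chance marks about 1 in 20 groups. It marked 3. EP300 had 1842 CPM in the 8-cell SPIA library of embryo 020816_09, with a gap to the nearest library of 0.519 of the group's range (n = 9). That library also had the lowest KAT2B and KAT6B levels of its stage, 0.365 and 0.274 CPM. EP300 had 508 CPM in 1 of the 2 SoLo expanded blastocysts of code 111215, with a gap of 0.633 (n = 6). EHMT1 had 28.7 CPM in the SoLo expanded blastocyst of embryo 112415_03, with a gap of 0.745 (n = 6), and the same library had the highest KAT2B level of its group, 20.6 CPM. It also had the lowest KAT6B level of its group, 117 CPM, and the lowest correlation with the rest of its group, r = 0.936. Its sums of 8-cell genome activation and of oocyte and maternal markers were the highest there, 218 and 501 CPM, against medians of 28.6 and 305 CPM.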

How the results depend on the processing

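KAT2B kept its lower level in expanded blastocysts in every alternative run, and so did EP300 its sign against 8-cell embryos. Counts of genes called moved by more than 1.5 times under several settings. With the compared groups alone, morula against 8-cell gave 446 in SPIA and 1266 in SoLo, and expanded blastocyst gave 1297 against morula and 3704 against 8-cell in SPIA. Without the filter, SPIA gave 4634 for morula against 8-cell and 3792 for expanded blastocyst against morula. DESeq2 gave 3579 and 679 in SoLo for morulas against 8-cell embryos and for expanded blastocysts against morulas, and 25 for delayed blastocysts. The title code block gave 1988 for morula against 8-cell and 1 for delayed blastocysts in SPIA, and 275 for expanded blastocyst against morula in SoLo. For SPIA morula against 8-cell, libraries under 12 M counts gave 1876 and code 020816 alone gave 4. SPIA embryos with no SoLo library gave 741 for morula against 8-cell, and 678 and 2868 for expanded blastocysts against morulas and 8-cell embryos. Leaving out 1 library gave 5 to 1477 calls for SoLo expanded blastocyst against morula (162 with all), the highest without morula 022916_01 and 7 without 1 of the 2 expanded blastocysts of code 111215, and 1740 to 2550 for SoLo morula against 8-cell. The share of calls that were higher went to 44.6% by DESeq2 and 77.5% with the title code block from 32.1% for SPIA expanded blastocyst against morula, and to 66.2% with that block from 35.3% against 8-cell. In SoLo it went to 44.9% by DESeq2 and 71.0% without the cumulus embryos from 58.5% for morula against 8-cell, and to 42.6% by DESeq2, 72.7% with the block and 29.2% with the compared groups alone from 9.88% for expanded blastocyst against morula. The limma voom fit with the block moved the median of all genes by 0.632 and 0.734 in SPIA expanded blastocyst against morula and 8-cell. DESeq2 size factors moved it by 0.137 and 0.117 there. Leaving out the cumulus embryos moved it by 0.149 and 0.147 in the SoLo contrasts with 8-cell embryos. No voom fit was run without the block, so the part of the block in its values was not tested. With the embryo as a replicate block over the 11 pairs, 2900 genes differed between kits, against 2717 in the same pairs without it (a fit chosen after seeing the data) and 3459 in all libraries; the kit-by-stage count for expanded blastocyst against 8-cell was 3 with the block, none of them among the 5 of all libraries, 0 without the block and 3 without the filter, and no other count or member call changed with the block. Leaving out an embryo gave 0 to 154 and, for morula against 8-cell, 0 to 25. Differences that changed sign were not called, apart from EHMT1 in morulas. In SPIA morula against 8-cell, libraries under 12 M counts gave -0.45 for KAT2B, 0.1 for CREBBP, 0.16 for KAT6A, 0.13 for KAT6B, -0.02 for EHMT2 and 0.93 for SETDB1. Code 020816 alone gave 0.24 for CREBBP and 0.05 for KAT6B, embryos with no SoLo library 0.16 for CREBBP, 0.12 for KAT6A and -0.19 for EHMT1, the title code block 0.38 for KAT6B and -0.2 for EHMT1, and the set without cumulus embryos 0.03 for KAT6B. EHMT1 in SPIA expanded blastocyst against morula was 0.94 by DESeq2, 1.68 with the block and 0.86 in embryos with no SoLo library. EHMT2 in SPIA expanded blastocyst against 8-cell was -0.00052 without the filter and -0.0016 with the compared groups alone. For delayed blastocysts, code 112515 alone gave 0.1 for CREBBP and 0.16 for EHMT2, and the block 0.08 for EHMT2. Without the cumulus embryos, SoLo morula against 8-cell gave 0.4 for KAT2B and -0.3 for KAT6A, and expanded blastocyst against 8-cell -0.41 for KAT6A. SETDB1 between kits was -0.01 with the replicate block and -0.17 in the same pairs without it; the kit-by-stage values were 0.24 for KAT2B (morula against 8-cell, with the block) and 0.12 for EHMT1 (expanded blastocyst against 8-cell, no filter). Leaving out 1 library also changed signs. The SPIA ranges were -0.35 to 0.02 for CREBBP, -0.26 to 0.12 for KAT6B and -0.06 to 2.95 for EHMT1 in morula against 8-cell, -1.92 to 0.95 for EHMT1 in expanded blastocyst against morula, -0.16 to 0.34 for EHMT2 in expanded blastocyst against 8-cell, and, for delayed blastocysts, -0.24 to 0.35 for KAT6A, -0.05 to 0.2 for EHMT1, -0.26 to 0.08 for EHMT2 and -1.53 to 0.13 for SETDB1. The SoLo ranges were -0.72 to 0.32 for KAT2B in morula against 8-cell, -0.29 to 0.02 for CREBBP and -0.32 to 0.08 for SETDB1 in expanded blastocyst against morula, and -0.02 to 0.32 for KAT6A and -0.04 to 0.31 for SETDB1 in expanded blastocyst against 8-cell. Between kits SETDB1 ran from -0.08 to 0.22. The kit-by-stage ranges were -0.47 to 0.4 for KAT2B and -0.39 to 1.1 for EHMT1 in morula against 8-cell, -0.05 to 0.14 for EP300, -0.28 to 0.08 for CREBBP, -0.86 to 0.01 for EHMT1 and -0.06 to 0.56 for SETDB1 in expanded blastocyst against morula, and -0.2 to 0.51 for KAT6A, -0.16 to 0.4 for KAT6B and -0.91 to 0.57 for EHMT1 in expanded blastocyst against 8-cell. The cause of these moves was not tested, beyond fewer libraries or genes where a setting has them. Calls on single genes also changed beyond those whose values are given with the results. The SPIA morula call of EHMT1 was lost by DESeq2 (0.09, adjusted p = 0.941), with the compared groups alone (2.76, edgeR adjusted p = 0.149), within code 020816 (0.54, edgeR adjusted p = 0.928) and in libraries under 12 M counts (3.67, edgeR adjusted p = 0.0568). The SPIA call of CREBBP was lost with DESeq2 size factors (-0.63, edgeR adjusted p = 0.0849), by DESeq2 (-0.63, adjusted p = 0.0778) and in embryos with no SoLo library (-0.74, edgeR adjusted p = 0.273). In those embryos both SPIA calls of KAT6B were lost as well, at 1.16 against morulas (edgeR adjusted p = 0.266) and 1.05 against 8-cell embryos (edgeR adjusted p = 0.295). The SoLo morula call of EHMT2 was lost with DESeq2 size factors (0.74, edgeR adjusted p = 0.0761), without the filter (0.84, edgeR adjusted p = 0.0846), with the title code block (0.84, limma adjusted p = 0.0604) and with the compared groups alone (0.83, edgeR adjusted p = 0.194). In SoLo, EP300 was gained in morulas against 8-cell embryos by DESeq2 (-0.52, adjusted p = 0.0367), and EHMT1 in expanded blastocysts against 8-cell embryos without the filter (1.12, edgeR adjusted p = 0.0472) and with the title code block (1.32, limma adjusted p = 0.0324). EHMT1 had 10 or fewer counts in 5 SPIA libraries and KAT2B in 6, among libraries of 0.601 to 21.0 M counts.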
